A study of Homo sapiens with 8 samples.

Results

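The APOBEC3 genes are 7 neighbouring genes on human chromosome 22 (APOBEC3A, APOBEC3B, APOBEC3C, APOBEC3D, APOBEC3F, APOBEC3G and APOBEC3H), found here by gene symbol among the 63129 genes of an RNA sequencing table of LP-1 cells, a human multiple myeloma cell line. The family was selected on the fold changes it showed in these same libraries, so every difference of a member between compound and DMSO is a description and carries no test. In the SGC-CBP30 experiment, LP-1 cells were given DMSO vehicle or 2.5 µM SGC-CBP30, an inhibitor of the CBP and EP300 bromodomains, for 6 h. In the CPI203 experiment, LP-1 cells were given DMSO vehicle or 250 nM CPI203, an inhibitor of the BET family bromodomains, for 6 h. Each of the 4 groups had 2 libraries, the libraries of each compound were read against the DMSO libraries of the same naming series, and all 8 came from a single cell line. The short exposure was meant to capture early effects of each inhibitor on transcription. Levels are in RPKM (reads scaled to transcript length and library size), which allows genes to be compared within a library.

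APOBEC3 enzymes deaminate cytidine to uridine in single-stranded DNA, and some act on RNA. They restrict retroviruses and mobile elements by mutating or blocking the nascent DNA, and the uracils they leave are removed by uracil-DNA glycosylase and base excision repair. APOBEC3A and APOBEC3B can also act on the nuclear genome, and mutations bearing an APOBEC signature are known from several cancers, myeloma among them.

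All 7 plasma cell markers were at or above a mean of 1 RPKM, at summed levels of 474 to 889 RPKM per library, whereas 0 of 6 T and NK cell markers, 0 of 6 myeloid markers and 0 of 4 B cell markers reached 1 RPKM, and PAX5 was listed at 0. The plasma cell marker sum was itself lower with the compounds, at group means of 731 and 483 RPKM with DMSO and SGC-CBP30 and of 889 and 539 RPKM with DMSO and CPI203. Its members did not all go that way, since SDC1 measured 43.9 and 47.2 RPKM with DMSO and 53.1 and 47.4 RPKM with SGC-CBP30, and PRDM1 measured 54.2 and 51.7 RPKM with DMSO and 70.0 and 66.3 RPKM with CPI203. The summed T and NK cell markers were higher in the CPI203 experiment (group means of 1.02 and 1.11 RPKM) than in the SGC-CBP30 experiment (0.126 and 0.114 RPKM). Haemoglobin gene HBB was the 1 of 4 stroma and erythroid markers above 1 RPKM, and that list summed to 0.989 to 3.60 RPKM. The sequencing depth, read from the steps between low values, was about 26100000 to 50200000 reads per library, and the SGC-CBP30 libraries were 1.42 times as deep as their DMSO libraries. The part of marker levels and depth in the APOBEC3 values was not tested.

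The cluster spanned 151.3 kb, at chr22:39348745-39500072 in hg19, the build of the deposited gene positions. Along it the genes lay in alphabetical order, APOBEC3A at chr22:39348745-39359188, APOBEC3B at chr22:39378351-39388809, APOBEC3C at chr22:39410087-39414931, APOBEC3D at chr22:39410367-39429256, APOBEC3F at chr22:39436608-39449915, APOBEC3G at chr22:39436923-39483748 and APOBEC3H at chr22:39493228-39500072. The deposited spans of APOBEC3C and APOBEC3D overlapped by 4565 bases and those of APOBEC3F and APOBEC3G by 12993 bases. APOBEC3A had 2 rows in the table, and the row on an alternative haplotype contig was listed at 0 in all 8 libraries.

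Each APOBEC3 domain carries a zinc-binding motif, in which a histidine and 2 cysteines hold the zinc ion and a glutamate carries out the proton transfer of deamination. Most coding stretches of this motif are shown because they make visible how alike the members are, which bears on how short reads could be divided among them. They were taken from the GENCODE 29 principal transcripts on GRCh38, plus strand, and capitals mark the codons of the histidine, the glutamate, the proline and cysteine pair and the final cysteine. Of the 7 genes, APOBEC3A, APOBEC3C and APOBEC3H had 1 motif and APOBEC3B, APOBEC3D, APOBEC3F and APOBEC3G had 2, 11 stretches in all, every one coding and lying in exon 3 (motif 1) or exon 6 (motif 2).
APOBEC3A motif and APOBEC3B motif 2: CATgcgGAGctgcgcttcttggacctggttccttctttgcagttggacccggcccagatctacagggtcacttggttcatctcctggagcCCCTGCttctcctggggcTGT
APOBEC3B motif 1 and APOBEC3F motif 1: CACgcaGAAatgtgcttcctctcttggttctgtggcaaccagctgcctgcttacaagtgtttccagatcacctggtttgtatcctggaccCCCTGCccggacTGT
APOBEC3D motif 2 and APOBEC3F motif 2: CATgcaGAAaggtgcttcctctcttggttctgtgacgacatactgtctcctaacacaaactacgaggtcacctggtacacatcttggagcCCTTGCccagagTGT
APOBEC3C motif: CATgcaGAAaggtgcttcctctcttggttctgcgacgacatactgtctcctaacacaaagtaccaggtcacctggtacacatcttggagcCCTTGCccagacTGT
APOBEC3G motif 1: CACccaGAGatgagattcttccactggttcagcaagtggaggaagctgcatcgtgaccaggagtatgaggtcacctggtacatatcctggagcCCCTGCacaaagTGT
APOBEC3G motif 2: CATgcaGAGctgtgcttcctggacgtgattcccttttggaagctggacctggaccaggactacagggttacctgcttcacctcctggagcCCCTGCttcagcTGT

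Of these stretches, 3 pairs were identical in every base. The 111 bases of APOBEC3A (chr22:38961420-38961530 in GRCh38) were those of APOBEC3B motif 2 (chr22:38991365-38991475), the 105 bases of APOBEC3B motif 1 (chr22:38985833-38985937) were those of APOBEC3F motif 1 (chr22:39044962-39045066), and the 105 bases of APOBEC3D motif 2 (chr22:39031715-39031819) were those of APOBEC3F motif 2 (chr22:39052095-39052199). The APOBEC3C motif (chr22:39017787-39017891) differed from that last sequence at 4 bases, an identity of 96.2%. APOBEC3G stood further off, its motif 2 (chr22:39086312-39086416) sharing 77.5% of aligned bases with the APOBEC3A sequence. The motif 1 of APOBEC3G lay at chr22:39080954-39081061. Not shown are APOBEC3D motif 1 and the APOBEC3H motif. APOBEC3D motif 1 shared 87.6% of aligned bases with APOBEC3B motif 1 and APOBEC3F motif 1. The APOBEC3H motif stood furthest off, sharing at most 64.2%, with APOBEC3G motif 2.

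Over the whole principal transcript, the share of 50-base windows found unchanged in a coding transcript of another member was 50.5% for APOBEC3B, 24.0% for APOBEC3F, 22.6% for APOBEC3A, 19.1% for APOBEC3G, 15.2% for APOBEC3D, 1.2% for APOBEC3C and 0.0% for APOBEC3H. APOBEC3B shared most with APOBEC3A (33.4% of its windows), and APOBEC3G with APOBEC3F (16.9%). In these transcripts APOBEC3C and APOBEC3H consist almost wholly of windows found in no other member. The levels, however, were made on the deposited hg19 gene models, where 4565 of the 4845 bases of the APOBEC3C span overlap that of APOBEC3D. The windows do not measure sharing in those models. The levels of all members but APOBEC3H are uncertain to the extent that abundance estimation could move shared reads between them.

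LP-1 cells expressed 5 of the 7 members at a mean of 1 RPKM or more, the level required for the fit across genes, and the other two, APOBEC3A and APOBEC3H, were below it in all 8 libraries. In both DMSO groups the levels ran in the order APOBEC3C, APOBEC3G, APOBEC3B, APOBEC3D, APOBEC3F, APOBEC3H, APOBEC3A, and no neighbours in that order overlapped between libraries. APOBEC3C and APOBEC3G together made up 77.9% of the summed APOBEC3 RPKM in the DMSO group of the SGC-CBP30 experiment and 79.4% in that of the CPI203 experiment. With either compound APOBEC3F came to stand above APOBEC3D. With CPI203 the mean of APOBEC3A also stood above that of APOBEC3H, but the libraries of these genes overlapped.

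**Figure D1:**
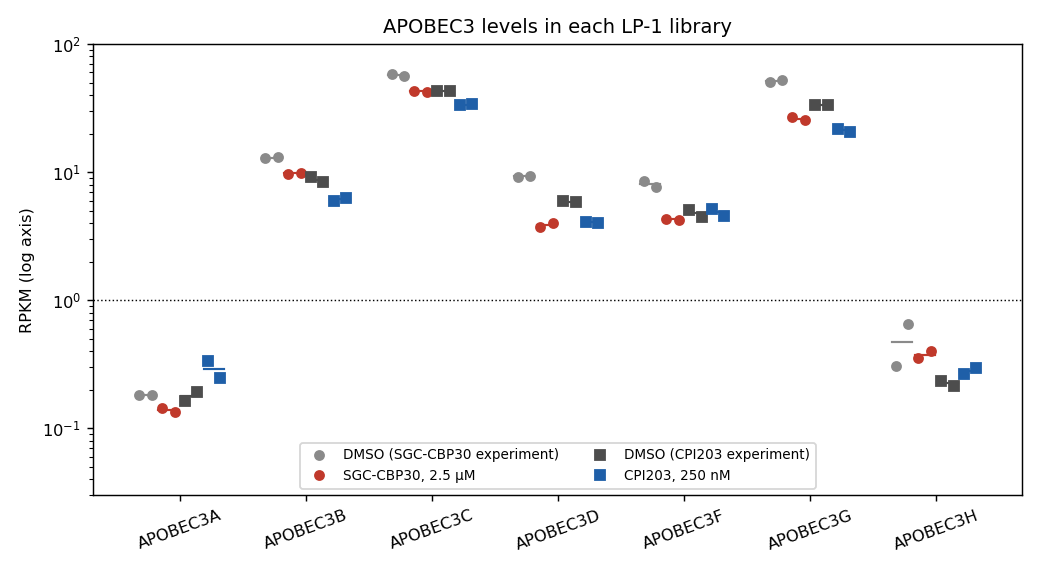
RPKM of each APOBEC3 gene in each of the 8 LP-1 libraries (log axis), with 2 points per group and a short bar at the group mean, and a dotted line at 1 RPKM. APOBEC3C and APOBEC3G lie highest in every group (20.7 to 58.3 RPKM) and APOBEC3A and APOBEC3H lie below 1 RPKM.

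APOBEC3D lay furthest below its DMSO level with SGC-CBP30. This double-domain enzyme restricts retroviruses and is packaged into virions. It stood at 9.16 and 9.38 RPKM in the DMSO libraries and at 3.71 and 3.97 RPKM in the SGC-CBP30 libraries. Both treated libraries lay well below both DMSO libraries, at 41.4% of the DMSO mean. The log2 fold change, on the scale of log2(RPKM + 0.1), was -1.25 (SE 0.08), and 0.672% of the 14732 genes tested had a more negative value. In these bulk samples a loss of expressing cells and a lower RNA level per cell cannot be told apart, for this and every other member.

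APOBEC3G, the best studied anti-HIV factor of the family and the target of viral Vif, was the second. It measured 50.4 and 52.8 RPKM with DMSO and 26.8 and 25.5 RPKM with SGC-CBP30. The groups were widely separated, with the treated mean at 50.7% of DMSO and a log2 fold change of -0.98 (SE 0.05). APOBEC3F, which acts beside APOBEC3G against retroviruses and prefers another dinucleotide context, measured 8.48 and 7.65 RPKM with DMSO and 4.31 and 4.22 RPKM with SGC-CBP30. Again the groups did not overlap, and the log2 fold change was -0.90 (SE 0.11), with the treated mean at 52.9% of DMSO.

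APOBEC3C and APOBEC3B lay less far below DMSO. APOBEC3C, a single-domain enzyme with weak antiviral activity, was the most abundant member, at 58.3 and 56.6 RPKM with DMSO and 43.3 and 42.2 RPKM with SGC-CBP30. APOBEC3B, a nuclear enzyme linked to mutation in cancer, measured 12.9 and 13.0 RPKM with DMSO and 9.64 and 9.88 RPKM with SGC-CBP30. In neither gene did the groups overlap. The log2 fold changes were -0.43 (SE 0.04) for APOBEC3C and -0.41 (SE 0.07) for APOBEC3B, with the treated means at 74.3% and 75.3% of DMSO.

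The low members gave no clear picture. APOBEC3A, an interferon-inducible enzyme of myeloid cells, lay at 0.181 and 0.183 RPKM with DMSO and 0.145 and 0.133 RPKM with SGC-CBP30. APOBEC3H, the most divergent member, lay at 0.305 and 0.646 RPKM with DMSO and 0.351 and 0.402 RPKM with SGC-CBP30. The 2 DMSO libraries of APOBEC3H differed more than 2-fold and spanned both treated values, and neither gene entered the fit.

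Across all genes, limma called 1070 of 14732 genes with SGC-CBP30 (7.26%) at a Benjamini-Hochberg adjusted p below 0.05 and a change of at least 1.5-fold, a log2 change of 0.585. Of all genes, 3.79% were called lower and 3.47% higher, a split that leaned further to the lower side after scaling on the library medians (32.5% of calls higher in place of 47.8%). APOBEC3D, APOBEC3G and APOBEC3F met the call, all lower, with APOBEC3F (-0.90) the nearest member inside the fold limit and APOBEC3C (-0.43) the nearest outside it. Both treated libraries lay below both DMSO libraries for all 5 members that entered the fit, and for 27.2% of all genes. These counts follow from how the family was chosen, and nothing is read from them.

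With CPI203, APOBEC3G was again lower, and 3 other members lay below DMSO with it. APOBEC3G measured 33.4 and 33.1 RPKM with DMSO and 21.6 and 20.7 RPKM with CPI203, a log2 fold change of -0.65 (SE 0.05) and 63.6% of the DMSO mean. It was the lowest of the family by this measure. APOBEC3D measured 5.91 and 5.80 RPKM with DMSO and 4.07 and 4.03 RPKM with CPI203, a log2 fold change of -0.52 (SE 0.08). APOBEC3B went from 9.13 and 8.35 RPKM to 5.92 and 6.32 RPKM, a log2 fold change of -0.51 (SE 0.07), and APOBEC3C from 43.1 and 42.9 RPKM to 33.2 and 33.8 RPKM, a log2 fold change of -0.36 (SE 0.04). In these 4 genes both CPI203 libraries lay below both DMSO libraries.

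APOBEC3F did not share in this. Its DMSO libraries stood at 5.10 and 4.44 RPKM and its CPI203 libraries at 5.19 and 4.53 RPKM, so that the groups interleaved, with a log2 fold change of 0.03 (SE 0.11). APOBEC3A was higher in both CPI203 libraries (0.334 and 0.248 RPKM) than in both DMSO libraries (0.164 and 0.191 RPKM). APOBEC3H was at 0.265 and 0.298 RPKM with CPI203 and 0.232 and 0.216 RPKM with DMSO. At such levels the difference in either gene is small in RPKM and was not tested.

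limma called 4095 of the same 14732 genes with CPI203 (27.8%), 14.4% lower and 13.4% higher. Of the 5 members fitted, APOBEC3G alone met the call, at -0.65, and APOBEC3D was the nearest outside the fold limit at -0.52. Both treated libraries lay below both DMSO libraries for 41.7% of all genes. A more negative value than that of APOBEC3G was seen in 12.8% of genes with CPI203, and in 1.46% of genes with SGC-CBP30. As with SGC-CBP30, these places in the distribution come from the contrast used to choose the family.

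**Figure D2:**
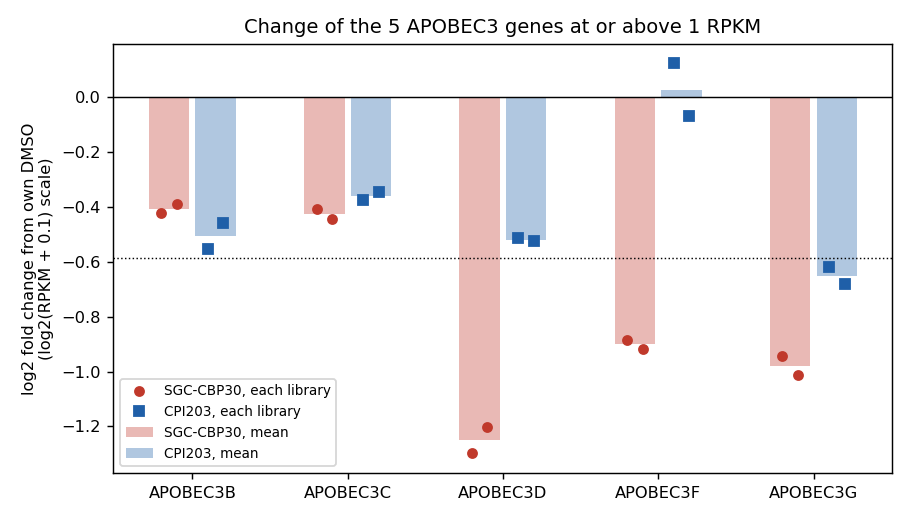
Log2 fold change of the 5 APOBEC3 genes that averaged 1 RPKM or more, on the log2(RPKM + 0.1) scale, for SGC-CBP30 and CPI203, each against its own DMSO. Bars start at 0 and give the mean, points give each treated library less the DMSO mean, and the dotted line marks a 1.5-fold fall; APOBEC3D, APOBEC3G and APOBEC3F cross it with SGC-CBP30 and APOBEC3G with CPI203.

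The doses of the 2 compounds differ, so their values stand side by side without a comparison. The log2 fold changes with SGC-CBP30 and CPI203 were -1.25 and -0.52 for APOBEC3D, -0.98 and -0.65 for APOBEC3G, and -0.90 and 0.03 for APOBEC3F. For APOBEC3C they were -0.43 and -0.36, and for APOBEC3B -0.41 and -0.51. The spread between replicates, as the SD over genes of the log2 difference between the 2 libraries of a group, was 0.174 to 0.203 for genes at 4 to 16 RPKM, the range that holds APOBEC3B, APOBEC3D and APOBEC3F by their mean, and 0.0767 to 0.11 at 30 to 60 RPKM, which holds APOBEC3C and APOBEC3G.

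A sum over members depends less on how shared reads were divided among them. The sum of all APOBEC3 genes was 139.8 and 140.3 RPKM with DMSO and 88.2 and 86.3 RPKM with SGC-CBP30, or 62.3% of the DMSO mean. With CPI203 it went from 97.0 and 95.0 RPKM to 70.5 and 69.9 RPKM, or 73.1%. The sum of APOBEC3F and APOBEC3G, the pair with overlapping spans, had a log2 ratio to DMSO of -0.97 with SGC-CBP30 and -0.55 with CPI203. The sum of APOBEC3C and APOBEC3D had -0.52 and -0.38.

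Within the summed APOBEC3 RPKM, the weight shifted from APOBEC3G to APOBEC3C with either compound. With SGC-CBP30 the share of APOBEC3C went from 41.0% to 48.9%, that of APOBEC3G from 36.9% to 30.4% and 29.6% in the 2 libraries, that of APOBEC3D from 6.62% to 4.41% and that of APOBEC3B from 9.26% to 11.2%. With CPI203 the share of APOBEC3C went from 44.8% to 47.7%, that of APOBEC3G from 34.6% to 30.1% and that of APOBEC3F from 4.97% to 6.92%.

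**Figure D3:**
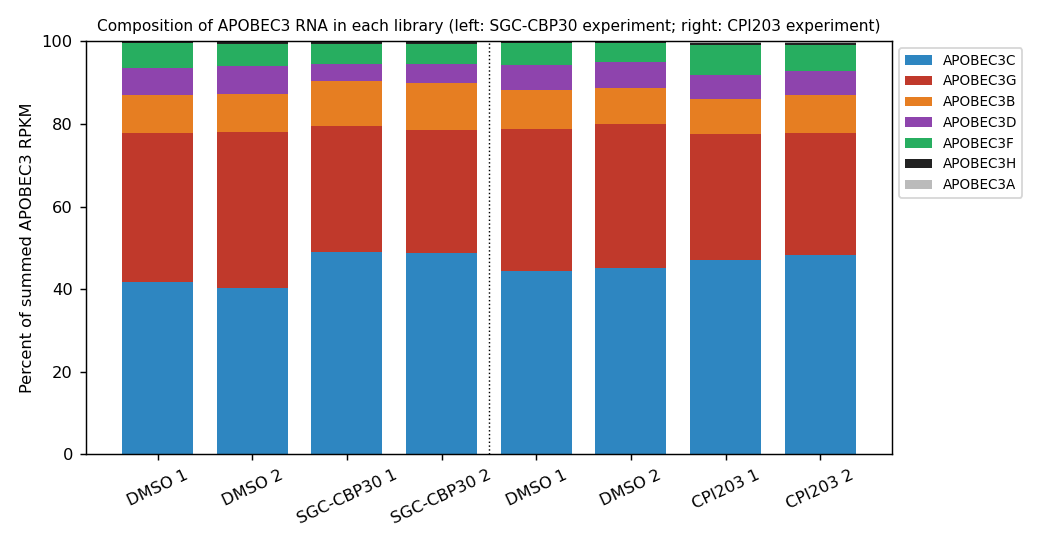
Percent of the summed APOBEC3 RPKM held by each gene in each library, stacked to 100, with the SGC-CBP30 experiment left of the dotted line and the CPI203 experiment right of it. APOBEC3C holds 40.3 to 49.0% and APOBEC3G 29.6 to 37.6% in every library.

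The 2 DMSO pairs did not start from the same APOBEC3 level. The DMSO libraries of the CPI203 experiment were lower than those of the SGC-CBP30 experiment in 6 of the 7 members, with no overlap, and APOBEC3A overlapped. Such a separation was common, being seen in 35.1% of all genes tested. The log2 differences were -0.74 for APOBEC3F, -0.65 for APOBEC3D, -0.63 for APOBEC3G, -0.56 for APOBEC3B and -0.42 for APOBEC3C, beside a median of 0.01 over all genes. APOBEC3H was not among the genes tested. Its value of -0.83 came from levels below 1 RPKM, 0.232 and 0.216 RPKM against 0.305 and 0.646 RPKM, and leans on the higher of these libraries. The summed T and NK cell markers differed the other way, being higher in the CPI203 experiment. The pairs bear different library naming series, and whatever else differed between the experiments cannot be told apart from it. For APOBEC3F, APOBEC3D, APOBEC3B and APOBEC3C the gap was wider than the log2 fold change with CPI203 (0.03, -0.52, -0.51 and -0.36). For APOBEC3G it was close to it (-0.65). With SGC-CBP30 the gap was wider than the change of APOBEC3B (-0.41), close to that of APOBEC3C (-0.43) and narrower for APOBEC3D, APOBEC3G and APOBEC3F. APOBEC3C stood at 42.7 ± 0.779 RPKM (SD, n = 2) with SGC-CBP30 and at 43.0 ± 0.167 RPKM (SD, n = 2) with the DMSO of the CPI203 experiment. Set against that other DMSO, the SGC-CBP30 libraries had log2 differences of -0.60 for APOBEC3D, -0.35 for APOBEC3G, -0.16 for APOBEC3F, -0.01 for APOBEC3C and 0.16 for APOBEC3B. APOBEC3D, APOBEC3G, APOBEC3F and APOBEC3C thus had negative values against either DMSO pair, and APOBEC3B did not. Against the other DMSO the value of APOBEC3C was near 0. That of APOBEC3F (-0.16) stands beside an SE of 0.11 for its fitted log2 fold changes, and that of APOBEC3B (0.16) beside an SE of 0.07. The libraries of APOBEC3F did not overlap, at 4.31 and 4.22 RPKM with SGC-CBP30 and 5.10 and 4.44 RPKM with the other DMSO. With all 4 DMSO libraries as controls, the log2 fold changes with SGC-CBP30 were -0.92 for APOBEC3D, -0.66 for APOBEC3G, -0.53 for APOBEC3F, -0.22 for APOBEC3C and -0.12 for APOBEC3B. With CPI203 they were -0.97 for APOBEC3G, -0.85 for APOBEC3D, -0.79 for APOBEC3B, -0.57 for APOBEC3C and -0.35 for APOBEC3F. That control set called 3.5% of all genes with SGC-CBP30 and 29% with CPI203.

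The genes on either side of the cluster were measured in the same libraries and were not used to choose the family. Within 500 kb of it lay 43 other genes, of which 20 were tested. With SGC-CBP30, limma called 0 of these 20 lower and 1 higher, and their median log2 fold change was -0.01 beside 0.07 for all genes. Over all genes 3.79% were called lower and 3.47% higher, so these counts do not set the 20 apart. At an unadjusted limma p below 0.05 and any size, 4 of 20 were lower and 3 higher. The share of all genes at that limit was not taken. CBX6, a Polycomb chromobox gene and the nearest tested on the APOBEC3A side, was lower by less than the fold limit (-0.29, SE 0.05, limma adjusted p = 0.00203), and CBX7, the nearest on the APOBEC3H side, did not pass (-0.11, SE 0.12, limma adjusted p = 0.524). The neighbour called higher was RP3-508I15.9, whose span overlaps that of CBY1, at 0.410 and 0.942 RPKM with DMSO and 1.92 and 1.91 RPKM with SGC-CBP30 (log2 fold change 1.47). It averaged 1.09 RPKM over the 8 libraries and was below 1 RPKM in all but the SGC-CBP30 libraries. It thus passed the filter only through the group in which it was high, and nothing is read from its call.

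Over all genes, 14.4% were called lower and 13.4% higher with CPI203. Of the 20 neighbours, 3 were called lower and 1 higher, with a median log2 fold change of -0.14 beside -0.02 for all genes. Those called lower were SMCR7L (-0.75), RPS19BP1 (-0.63) and the meiotic recombinase gene DMC1 (-0.61, not called without CPI203 library 2 or with a pseudocount of 1), and the gene called higher was NPTXR, a neuronal pentraxin receptor gene (2.30, SE 0.10, limma adjusted p = 8.63e-08). CBX6 and CBX7 had log2 fold changes of -0.12 and 0.09 and did not pass. The antisense gene APOBEC3B-AS1, which overlaps APOBEC3B, was listed at values near 0 in every library and was not tested.

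**Figure D4:**
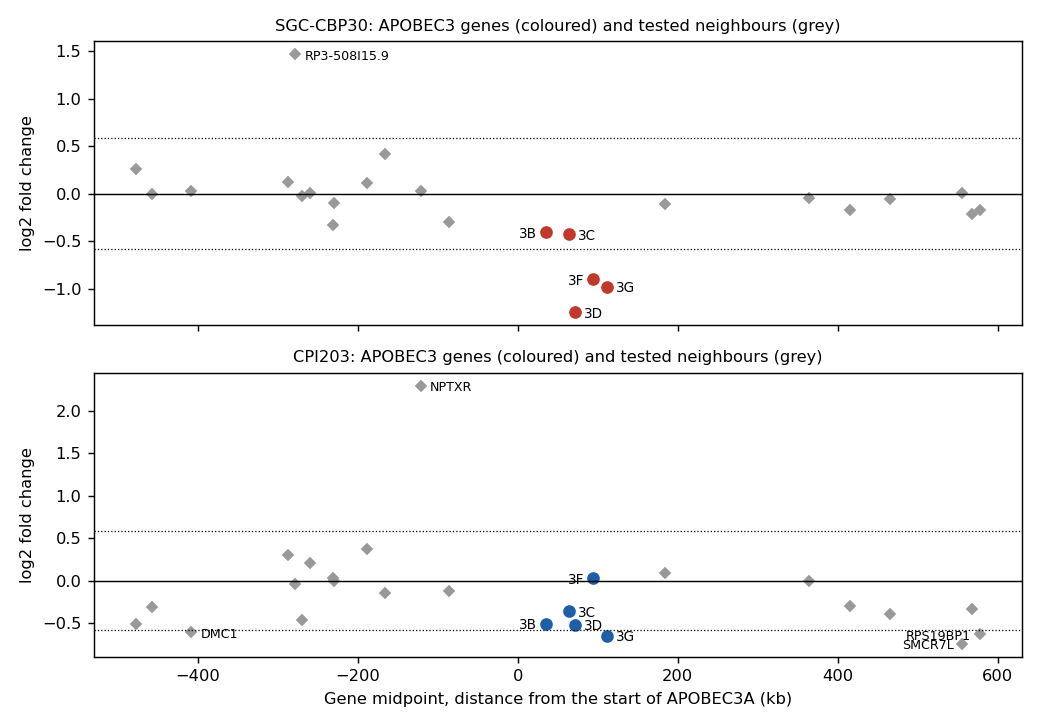
Log2 fold change of the tested genes within 500 kb of the APOBEC3 cluster by distance of the gene midpoint from the start of APOBEC3A (kb), for SGC-CBP30 (upper) and CPI203 (lower). APOBEC3 genes are coloured circles, neighbours grey diamonds, and dotted lines mark a 1.5-fold change; with SGC-CBP30 all 20 neighbours lie above the lower line, and with CPI203 3 lie below it.

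Other deaminases and their cofactors were few in these cells. Of 14 such genes, 6 were tested. APOBEC1, APOBEC2 and APOBEC4, family members outside the cluster, were not, at means of 0 to 0.0428 RPKM. The median log2 fold change with SGC-CBP30 was 0.02 beside 0.07 for all genes. Of the 6, 1 was called, lower, beside 3.79% of all genes called lower. It was RBM47, which encodes an RNA-binding cofactor of APOBEC1, with a mean of 20.3 ± 0.130 RPKM with DMSO and 10.8 ± 0.332 RPKM (SD, 2 libraries each) with SGC-CBP30 (log2 fold change -0.90, SE 0.07, limma adjusted p = 2.75e-05). With CPI203, 3 of the 6 were called, all lower, beside 14.4% of all genes called lower, with a median of -0.62 beside -0.02. These were ADAT2, a tRNA adenosine deaminase subunit gene (-1.38, limma adjusted p = 1.83e-06), RBM47 (-1.30, limma adjusted p = 3.81e-07) and DCTD, the gene of deoxycytidylate deaminase (-0.82, limma adjusted p = 2.74e-08).

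Of 19 listed genes that act on the uracils left by deaminases, by base excision repair or translesion synthesis, 18 were matched by symbol. All 18 were tested. UNG, which encodes uracil-DNA glycosylase, had a mean of 47.8 ± 0.0549 RPKM with DMSO and 55.9 ± 0.634 RPKM with SGC-CBP30 (log2 fold change 0.23, SE 0.04, limma adjusted p = 0.00165, under the fold limit). With CPI203 it fell, from 44.6 ± 0.0972 RPKM to 25.8 ± 0.250 RPKM (log2 fold change -0.79, SE 0.04, limma adjusted p = 1.49e-07). Of the 18 genes, limma called 1 lower and 0 higher with SGC-CBP30, beside 3.79% and 3.47% of all genes. At an unadjusted limma p below 0.05 and any size, 9 were higher and 3 lower. The share of all genes at that limit was not taken, so nothing is read from these counts. The median log2 fold change was 0.12 beside 0.07 for all genes. The 1 called was LIG3, the DNA ligase of single-strand break repair (-0.82, limma adjusted p = 0.000129). With CPI203, 2 were called lower, LIG3 (-1.05, limma adjusted p = 4.24e-06) and UNG, and 2 higher, the translesion polymerase gene POLH (0.80, limma adjusted p = 2.76e-06) and the replicative ligase gene LIG1 (0.60, limma adjusted p = 2.51e-05), with a median of 0.01 beside -0.02. Over all genes 14.4% were called lower and 13.4% higher with CPI203. LIG1 was no longer called without DMSO library 1, without CPI203 library 1, with a pseudocount of 1 or with all 4 DMSO libraries as controls.

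All 20 genes listed as known or proposed regulators of APOBEC3 transcription (E2F and DREAM complex, NF-kappaB, interferon factors) were tested. With SGC-CBP30 1 of the 20 was called, beside 7.26% of all genes. It was E2F2, an activating E2F, which was lower (-0.66, SE 0.05, limma adjusted p = 2.65e-05) but not called with all 4 DMSO libraries as controls. The median log2 fold change was -0.04 beside 0.07 for all genes. With CPI203, 2 were called lower and 5 higher, beside 14.4% and 13.4% of all genes, with a median of 0.03 beside -0.02. The interferon response factors led those that rose, with IRF7 at 3.84 ± 0.791 RPKM with DMSO and 21.4 ± 1.11 RPKM with CPI203 (log2 fold change 2.46, SE 0.15, limma adjusted p = 5.31e-07). IRF9 (1.46, limma adjusted p = 4.35e-07) and STAT2 (40.7 RPKM with DMSO and 93.8 RPKM with CPI203, limma adjusted p = 1.8e-08), the partners of interferon-stimulated gene factor ISGF3, and LIN54 of the DREAM complex (0.72, limma adjusted p = 3.46e-05) rose as well. The fifth that rose, LIN52 (0.61), and both that fell, NFKB1 (-0.63) and E2F4 (-0.60), were named after their values were seen. The calls of LIN52 and E2F4 were lost without DMSO library 1, that of LIN52 also without CPI203 library 2 and with a pseudocount of 1, and that of E2F4 also with quantile normalization.

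Other antiviral restriction factors formed a list of like function, with 15 of 28 tested. With SGC-CBP30, limma called 3 lower and 0 higher, beside 3.79% and 3.47% of all genes. At an unadjusted limma p below 0.05 and any size, 5 were lower and 1 higher, a limit at which the share of all genes was not taken. The median log2 fold change was -0.05 beside 0.07 for all genes. The 3 called were OAS1, an oligoadenylate synthetase gene (-0.89, limma adjusted p = 0.00259), SERINC5, the gene of a host membrane protein that makes virions less infectious (-0.78, limma adjusted p = 0.000202), and SLFN11, a gene that limits viral translation (-0.65, limma adjusted p = 0.0322). SLFN11 averaged 1.14 RPKM over the 8 libraries, at 1.76 and 1.94 RPKM with DMSO and 1.31 and 0.998 RPKM with SGC-CBP30. In the CPI203 experiment it was below 1 RPKM in every library. It thus passed the filter only through the DMSO group in which it was high, and nothing is read from its call. The call of SLFN11 was lost without either DMSO library of its experiment, without SGC-CBP30 library 2, with the replicate number as a block, with a pseudocount of 1, with no filter and with all 4 DMSO libraries as controls, the last of which also ended the call of OAS1. With CPI203, 1 was called, EIF2AK2, the gene of the double-stranded RNA kinase PKR (-0.66, limma adjusted p = 3.57e-05), and the median was 0.04 beside -0.02. Over all genes 27.8% were called with CPI203. The 5 APOBEC3 members, chosen on these values, had medians of -0.90 with SGC-CBP30 and -0.51 with CPI203.

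**Figure D5:**
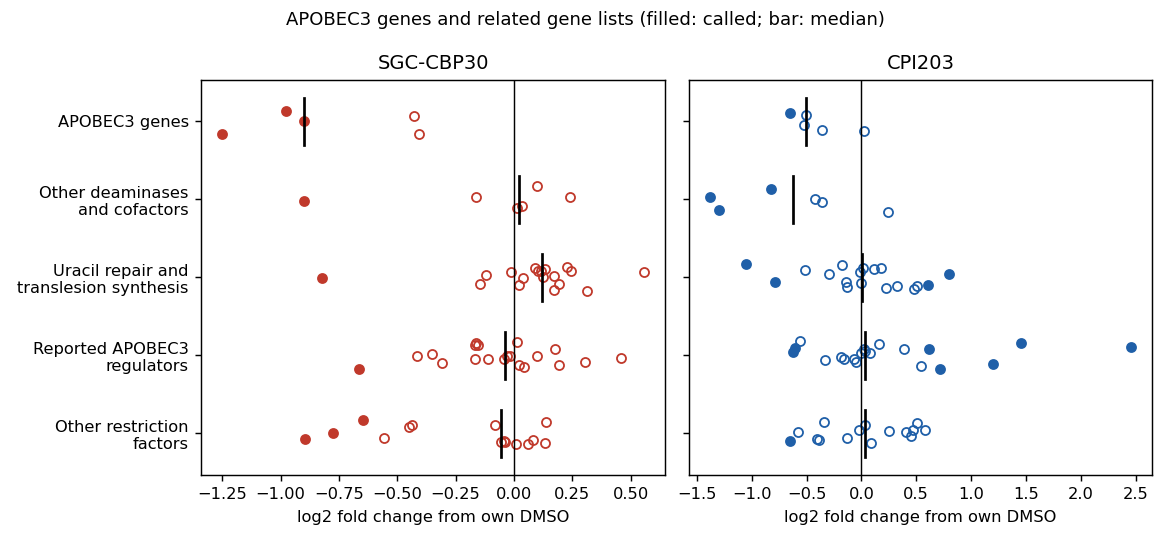
Log2 fold change of each tested gene in the APOBEC3 family and in 4 related lists, for SGC-CBP30 (left) and CPI203 (right), each against its own DMSO. Filled circles met the call, open circles did not, vertical offsets have no meaning and black bars mark medians. With SGC-CBP30 the medians lie at -0.90 for the APOBEC3 genes and between -0.05 and 0.12 for the other lists. With CPI203 they lie at -0.51 for the APOBEC3 genes, -0.62 for the other deaminases and 0.01 to 0.04 for the remaining lists. The APOBEC3 genes were chosen on these fold changes, so their distance from the other lists is not a result.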

How the data were processed

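RNA was sequenced from 8 LP-1 libraries, which the authors describe as biological replicates, 2 per group. Where replicates are not separate cultures, p-values measure technical spread. The deposited values are RPKM per gene, made by the authors with TopHat 1.4.1 and Cufflinks on hg19 (submitters' processing notes). The table's other 24 sample columns were not used. Values were taken as log2(RPKM + 0.1), and the 14732 genes averaging 1 RPKM or more were fitted in limma 3.58.1 (R 4.3.3) with 4 groups and a trended prior (4 residual and 5.48 prior degrees of freedom), with Benjamini-Hochberg adjustment over all genes. A call needed an adjusted p below 0.05 and 1.5-fold. An exact permutation test of 2 against 2 libraries cannot go below p = 0.333. The procedure was tested on simulated data for SGC-CBP30 against its DMSO, over 14732 genes, where it called 92.5% of 200 changed genes and 4 unchanged ones.

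Depth was read from the steps between values under 0.5 RPKM of 3742 single-exon genes of at least 800 bases, of which 64.0 to 77.4% were whole within 0.1 read, too few for a count test.

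Members and lists were chosen with earlier results of these data known. Named genes were all members, UNG, 1 gene not reported here, up to 4 called genes with the largest change per list and comparison, the nearest tested and any called neighbours, and the 5 genes whose log2 values correlated best with each of the 2 most abundant members. Alternatives covered pseudocount, filter, scaling, controls, replicate block and leaving out each library. Sequences came from GENCODE 29. Scripts used Python 3.11.15, pandas 2.3.3, numpy 2.4.6, Biopython 1.88 and matplotlib 3.10.9.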

Additional observations from a re-analysis of the deposited data

How the results depend on the processing

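Each group had 2 libraries and the file holds RPKM with no counts, so small changes and the members under 1 RPKM could not be resolved. The log2 fold change of APOBEC3F with CPI203 took the other direction under 3 of 15 alternatives (range -0.35 to 0.12). Those of the other fitted members did not, though the filters, the block and leaving out a library of the other experiment cannot move a fold change. The cause of the changes given next was not tested.

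With SGC-CBP30, the genes called went from 1070 to 667 with a pseudocount of 1, to 505 with genes averaging 5 RPKM or more and to 516 with all 4 DMSO libraries as controls. That control set left 1 APOBEC3 gene called in place of 3, 0 regulators and 1 restriction factor. The 5 RPKM filter left 1 restriction factor and 0 neighbours. The APOBEC3 median of -0.90 became -0.78 with a pseudocount of 1, -0.98 with median scaling, -0.96 with quantile normalization and -0.53 with all 4 DMSO libraries, and ranged from -0.94 to -0.83 with 1 library left out. Uracil repair genes called then ranged from 1 to 2, the 2 arising without DMSO library 2 or SGC-CBP30 library 1. The share of calls that were higher, 47.8%, was 32.5% with median scaling and 32.4% with quantile normalization.

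With CPI203, the genes called went from 4095 to 2590 with the 5 RPKM filter. All 4 DMSO libraries as controls gave 3 APOBEC3 genes called, beside 29% of all genes, and a median of -0.79 in place of -0.51. Restriction factors called went from 1 to 4 with no filter or with all 4 DMSO libraries and to 2 with either scaling, and ranged from 1 to 3 with 1 library left out (3 without DMSO library 1 or CPI203 library 2, 2 without DMSO library 2 or CPI203 library 1).

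The study calls its DMSO controls paired, without saying whether replicate numbers mark the pairs. Deviations of same-numbered libraries from the group means correlated at -0.10 in the SGC-CBP30 experiment and 0.01 in the CPI203 experiment, which does not settle the pairing. With the replicate block limma called 1057 genes for SGC-CBP30 and 4120 for CPI203. SLFN11 lost its call, and the other genes called in the lists and the APOBEC3 family kept theirs.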

Other observations

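The genes whose log2 level followed APOBEC3C most closely over the 8 libraries were ABCC1 (Pearson r = 0.998), PRTFDC1 (0.994), IGHG1 (0.993), ADA (0.993) and SH2B3 (0.992), and those closest to APOBEC3G were MEF2D (0.996), WSCD1 (0.996), LOXL4 (0.994), HNRNPLP2 (0.994) and NDUFV2P1 (0.993). ABCC1, which encodes a drug export transporter, stood at 43.1 and 42.5 RPKM and at 28.2 and 28.5 RPKM with DMSO and SGC-CBP30, and at 27.9 and 28.6 RPKM and at 20.1 and 20.1 RPKM with DMSO and CPI203. Like APOBEC3C, ABCC1 was lower in the DMSO pair of the CPI203 experiment than in the other pair. LOXL4, the gene of a lysyl oxidase, measured 11.0 and 12.4 RPKM with DMSO and 4.71 and 4.55 RPKM with SGC-CBP30, and 7.25 and 6.98 RPKM with DMSO and 3.48 and 3.54 RPKM with CPI203. HNRNPLP2 and NDUFV2P1 are pseudogenes, whose reads can belong to their parent genes.

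These are the highest of 14732 correlations over 8 libraries that share 4 group means, and they are given as a description. Among the 5 fitted members, r ranged from 0.638 (APOBEC3F with APOBEC3B) to 0.973 (APOBEC3B with APOBEC3C). APOBEC3G followed APOBEC3C (0.959) and APOBEC3D (0.956) more closely than APOBEC3F (0.83), with which its span overlaps.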
